A study of Mus musculus with 10 samples.

Results

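The genes described here encode nutrient carriers and drug efflux pumps by which brain endothelium is commonly recognised. They were chosen by name: *Slc2a1*, *Slc16a1*, *Slc7a5*, *Slc3a2*, *Slc7a1*, *Slc38a5*, *Abcb1a*, *Abcb1b*, *Abcg2* and *Abcc4*, 10 genes beside 27024 rows with a gene name in the expression table. Of the 10, 9 had a row and 8 were expressed highly enough to be tested. *Slc38a5*, which encodes a glutamine and neutral amino acid carrier, had no row and was not analysed here. No row with a gene name was at 0 in all 10 samples. A gene without a row may thus be an undetected one, which was not tested.

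The endothelium of brain capillaries is sealed by tight junctions, so water-soluble nutrients cross it mainly on carriers in the luminal and abluminal membranes. Glucose, lactate and ketone bodies, large neutral amino acids and cationic amino acids each have their own carriers, which belong to the solute carrier (SLC) families. ATP-driven pumps of the ABC family, chiefly P-glycoprotein and the breast cancer resistance protein, return many lipid-soluble drugs and conjugates to the blood. Brain endothelial cells are known to lose part of this equipment when they are kept in culture away from the brain.

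Transcripts were measured in bEnd.3, a wild-type mouse brain endothelial line immortalised with the polyoma middle T antigen, grown in high-glucose medium with serum and antibiotics. The 5 control samples (replicates 1, 2, 3, 4 and 5) received saline. The 5 treated samples (replicates 1, 2, 3, 5 and 6) received an equal volume with 5 nM StcE, a mucinase of enterohaemorrhagic *Escherichia coli* that cleaves proteins bearing dense mucin-type O-glycans, for 16 h. The labels do not state that samples of a group were separate cultures, so p-values measure the spread between these samples, which may be technical, and 1 immortalised line grown without other brain cells stands for the barrier.

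Levels are given in FPKM, fragments scaled by sequencing depth and by the combined length of all annotated exons of a gene. For *Abcb1b* that length was 7990 bases, where its longest coding transcript has 4306, while both were 4426 for *Slc16a1*. Levels of different genes, and their order, therefore depend on the exon length used. Between 21859248 and 33140113 fragments per sample were recovered from the table. The first principal component separated the groups and held 27.9% of the variance. Of 10 endothelial markers, all were above the minimum for testing, with *Cdh5* at 509 ± 25.9, *Cldn5* at 310 ± 19.8 and *Pecam1* at 302 ± 10.4 FPKM in saline samples (mean ± SD, n = 5), whereas *Vwf* was at 1.42 ± 0.675. In StcE samples 5 of the 10 were lower past the threshold used here (limma, adjusted p of 0.05), namely *Pecam1*, *Esam*, *Erg*, *Flt1* and *Tek*, and 0 were higher, beside 6.41% lower and 5.52% higher among all genes tested. The summed level of the 10 was 1593 to 1724 FPKM in saline and 1512 to 1597 in StcE samples, and the part of this shift in the transporter values was not tested. Markers of pericytes, astrocytes, microglia, neurons and epithelium reached at most 0.222 FPKM in any sample, and *Aqp4*, *Cx3cr1*, *Ptprc*, *Rbfox3*, *Snap25*, *Syt1* and *Epcam* were listed at 0 in every saline sample.

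bEnd.3 cells expressed 8 of the 9 measured transporters at 5.44 FPKM or more in every sample. By the group means of FPKM each nutrient carrier stood above each pump, though this order depends on the exon lengths used. In saline samples *Slc3a2* was highest at 54.0 ± 2.36 FPKM (mean ± SD, n = 5), followed by *Slc2a1* at 35.6 ± 1.62 and *Slc7a5* at 25.7 ± 0.930. These reached the 91.3rd, 85.7th and 79.8th percentile of the 11062 genes tested. *Slc16a1* at 13.0 ± 0.423, *Slc7a1* at 12.1 ± 0.413, *Abcb1b* at 10.1 ± 0.259 and *Abcc4* at 9.57 ± 0.489 lay close together in the middle. *Abcg2* followed at 5.96 ± 0.311, and *Abcb1a* was last at 0.244 ± 0.0516 FPKM.

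Most of this order was kept in every sample, but 3 neighbouring pairs were not separated by their spread. The saline ranges of *Slc16a1* and *Slc7a1* overlapped, and *Slc16a1* was the higher in 4 of 5 saline and 5 of 5 StcE samples. *Slc7a1* and *Abcb1b* overlapped among StcE samples, where *Slc7a1* was the higher in 4 of 5. *Abcb1b* and *Abcc4* overlapped among saline samples, where *Abcb1b* was the higher in 4 of 5. The widest gap was the last, since *Abcg2* was 24.5-fold above *Abcb1a* by the saline means and 16.4-fold to 41.6-fold above it within single samples.

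**Figure D1:**
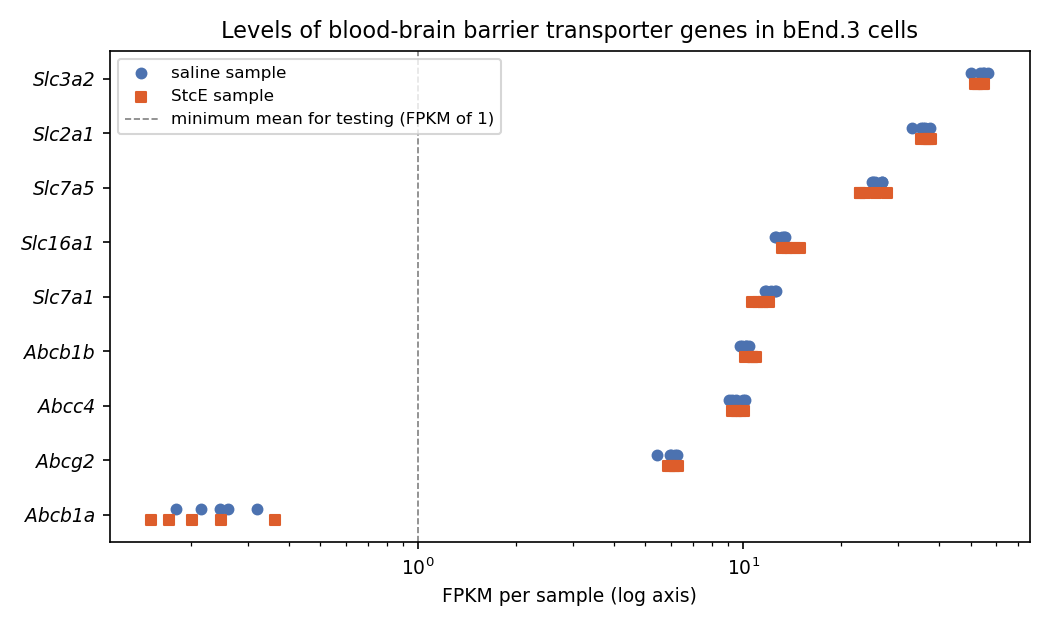
FPKM of the 9 transporter genes with a row, on a log axis, for 5 saline samples (circles) and 5 StcE samples (squares). The dashed line marks the mean FPKM of 1 needed for testing. Of the 9 genes, 8 lie above it and *Abcb1a* lies below it in all 10 samples, and the symbols of both groups cover nearly the same stretch for each gene.

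StcE was compared with saline to ask which transcripts of this line differ after exposure to the enzyme. The samples include no inactive enzyme, so the part of mucin cleavage in any difference was not tested. Of the 8 transporters tested, 0 passed an adjusted p of 0.05 (limma on log2(FPKM + 1), Benjamini-Hochberg over all 11062 genes). In the same comparison 1320 genes, 11.9% of those tested, passed, of which 611 (5.52%) were higher and 709 (6.41%) lower after StcE. A count of 0 of 8 is thus close to the 0.955 calls that this background share would give. At an unadjusted p under 0.05, 3 of the 8 transporters (*Slc16a1*, *Slc7a1* and *Abcb1b*) were found, beside 27.8% of all genes tested. With voom on recovered fragments 0 of the 8 passed, beside 14.3% of 10440 genes.

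The measured differences were small and bounded closely. The standard errors of the 8 log2 fold changes ran from 0.0272 to 0.0493, and no 95% interval reached beyond a 1.13-fold difference of FPKM + 1 in either direction. The median log2 fold change of the 8 was 0.018 and their median absolute change 0.058, against -0.00066 and 0.057 for all genes tested. The largest change, that of *Slc16a1*, was exceeded in size by 26.1% of the genes tested. In 0 of the 8 did the values of the groups separate without overlap, beside 10.7% of all genes tested. In these bulk samples a smaller number of cells making a transcript and less of it per cell cannot be told apart.

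Of the carriers for glucose and monocarboxylates, *Slc2a1* encodes GLUT1, through which most glucose enters the brain. It lies on GRCm38 chr4:119108711-119137983, plus strand. Its level in saline replicates 1 to 5 was 36.3, 35.3, 33.0, 37.4 and 35.7 FPKM, and in StcE replicates 1, 2, 3, 5 and 6 it was 37.8, 36.9, 36.6, 37.3 and 35.2 FPKM. The groups overlapped, with saline replicate 3 the lowest and StcE replicate 1 the highest of the 10. The log2 fold change was 0.047 (SE 0.0326, 95% interval -0.024 to 0.12, limma adjusted p = 0.377), and it ran from 0.022 to 0.081 over the 21 other ways of processing tried, without passing the threshold. An exact two-sided permutation test gave p = 0.198, where the smallest p that 5 against 5 samples can give is 0.00794. A transcript annotated on the other strand (*Gm12868*) overlaps 2.99% of its exon length.

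*Slc16a1* encodes MCT1, which carries lactate, pyruvate and ketone bodies together with protons (chr3:104638668-104658462, plus strand). It was measured at 12.6, 13.1, 12.5, 13.4 and 13.3 FPKM in saline samples and at 14.0, 14.9, 13.1, 14.4 and 13.6 in StcE samples. In 4 of the 5 StcE samples it stood above the highest saline sample, and StcE replicate 3 lay inside the saline range. Its log2 fold change of 0.10 (SE 0.0351, 95% interval 0.024 to 0.18) had an unadjusted p of 0.0144 and an adjusted p of 0.0860 with limma, and the exact permutation p was 0.0238. Without StcE replicate 3 its adjusted p was 0.0531, the lowest among the 168 refits of the 8 tested transporters.

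Of the amino acid carriers, *Slc7a5* and *Slc3a2* encode LAT1 and its partner 4F2hc (CD98). The 2 chains are joined by a disulphide bond and exchange large neutral amino acids, the thyroid hormones and L-DOPA. *Slc7a5* (chr8:121881150-121907694, minus strand) was at 26.7, 24.8, 25.0, 26.8 and 25.4 FPKM in saline samples. In StcE samples it was at 22.9, 27.6, 22.8, 25.6 and 23.6 FPKM, so StcE replicates 1, 3 and 6 lay below every saline sample and StcE replicate 2 above every one. This gave it the widest spread among StcE samples of the nutrient carriers relative to its level and a log2 fold change of -0.070 (SE 0.0493, 95% interval -0.18 to 0.038, limma adjusted p = 0.389, exact permutation p = 0.238). Without StcE replicate 2 the log2 fold change was -0.11, with a limma adjusted p of 0.0884.

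*Slc3a2* (chr19:8706882-8723369, minus strand) was at 54.9, 54.6, 53.4, 50.2 and 56.5 FPKM in saline and at 55.1, 54.5, 51.5, 52.5 and 52.5 FPKM in StcE samples. Every StcE value lay inside the saline range. Limma gave a log2 fold change of -0.018 (SE 0.0323, 95% interval -0.089 to 0.052, limma adjusted p = 0.754), and its 21 alternatives ran from -0.044 to -0.0016. Stretches of 150 or more bases that recur nearly unchanged in 223 other genes cover 6.58% of its transcript, so part of its level depends on how repeated reads were counted.

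Since both chains are needed for LAT1 at the membrane, their transcripts were also set against each other. *Slc7a5* stood at 44.9% to 53.3% of the level of *Slc3a2* in saline samples and at 41.5% to 50.6% in StcE samples. The mean log2 ratio differed by -0.054 between StcE and saline (exact two-sided permutation p = 0.437), less than the SD of 0.0995 among saline samples.

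*Slc7a1* encodes CAT1, the carrier for arginine, lysine and ornithine (chr5:148327410-148399904, minus strand). Its level was 12.6, 11.8, 12.1, 12.5 and 11.7 FPKM in saline samples and 10.6, 12.03, 11.1, 11.5 and 11.5 FPKM in StcE samples. In 4 of the 5 StcE samples it lay below the lowest saline sample, while StcE replicate 2 lay inside the saline range. Its log2 fold change of -0.090 (SE 0.0344, 95% interval -0.16 to -0.014) had an unadjusted p of 0.0235 and an adjusted p of 0.115 with limma, and an exact permutation p of 0.0397. All 3 measured amino acid members had a negative log2 fold change, that of *Slc3a2* being -0.018, and 0 of the 3 passed. The median over all genes tested was -0.00066. Of the 13 further amino acid carriers tested below, 8 had a negative and 5 a positive change, and all 3 pumps tested had a positive one.

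**Figure D2:**
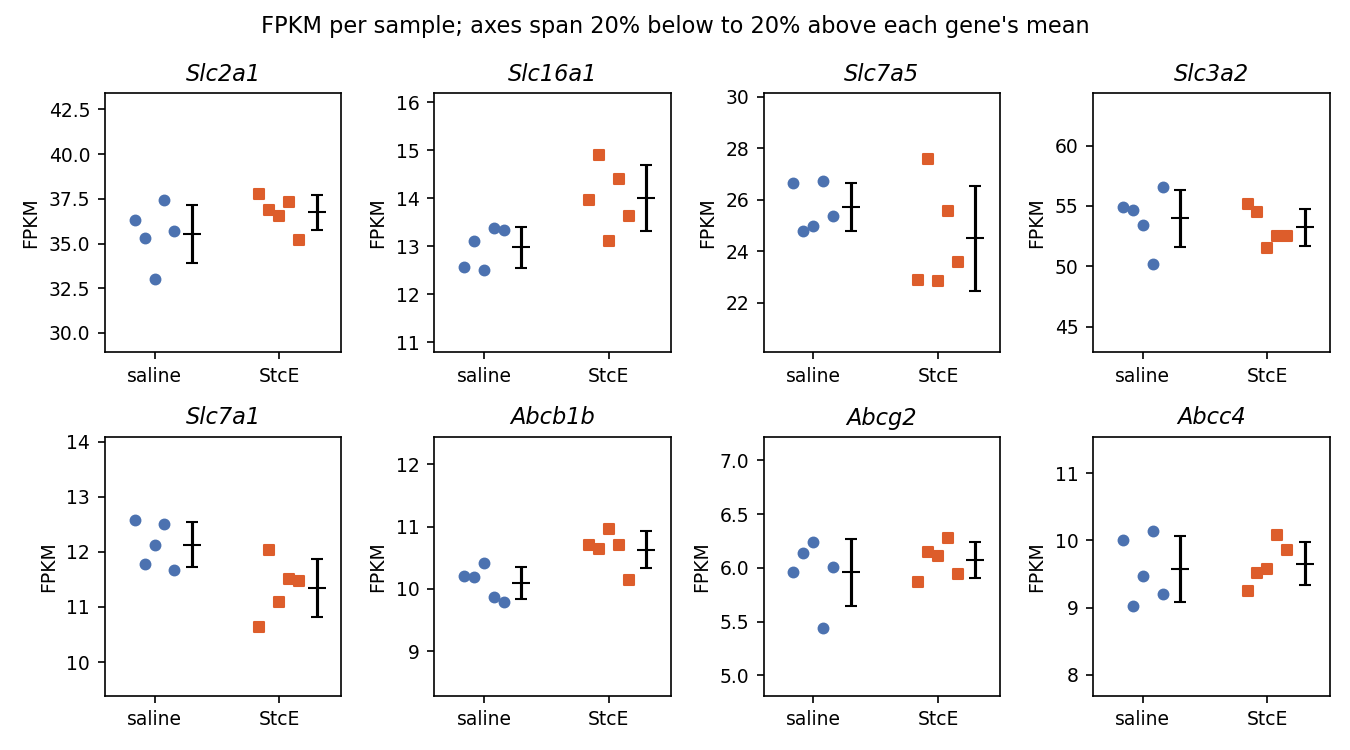
FPKM of the 8 tested transporters in each saline sample (circles) and StcE sample (squares), with the mean and SD of each group (n = 5) beside the points. Each axis spans 20% below to 20% above the gene's mean and does not start at 0. The groups overlap in all 8 panels. In those of *Slc16a1*, *Slc7a1* and *Abcb1b* 4 of 5 StcE samples lie beyond the saline range on the same side, and in that of *Slc7a5* 3 lie below it and 1 above.

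Of the efflux pumps, P-glycoprotein is encoded by a single gene in humans and by the paralogs *Abcb1a* and *Abcb1b* in mice. *Abcb1a* is the form known from brain capillaries, and *Abcb1b* is better known from adrenal gland, placenta and cultured cells. Both lie on the plus strand, *Abcb1a* at chr5:8660077-8748575 and *Abcb1b* at chr5:8798147-8866315. Because the comparison rests on reads being told apart, a stretch of 120 coding bases (positions 8 to 127, counted from the A of the start codon) is shown for both. It runs from exon 2 to exon 4 of 28 in each, over chr5:8660675-8674695 for *Abcb1a* and chr5:8798749-8806020 for *Abcb1b* with the introns between, read from the GENCODE vM21 transcripts on GRCm38, and capitals mark the 13 bases that differ.
Abcb1a: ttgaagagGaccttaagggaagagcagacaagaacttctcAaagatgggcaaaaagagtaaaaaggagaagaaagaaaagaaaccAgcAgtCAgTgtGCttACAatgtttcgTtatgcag
Abcb1b: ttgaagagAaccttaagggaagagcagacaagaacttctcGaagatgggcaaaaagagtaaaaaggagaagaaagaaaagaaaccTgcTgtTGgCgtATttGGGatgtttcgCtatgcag

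The coding sequences of both genes are 3828 bases long without the stop codon and are 88% identical over 3819 aligned bases. A window of 150 bases held a median of 17 differences, yet 214 of 3688 such windows held none and the longest identical run was 338 bases. Over whole transcripts, 40.1% of *Abcb1a* and 46.3% of *Abcb1b* lay in windows of 150 bases with 95% or more identity to the other or to *Abcb4*. The levels of both genes are therefore uncertain, and how many of the few fragments counted for *Abcb1a* came from *Abcb1b* was not tested. A transcript on the other strand (*Gm42686*) also overlaps 10.1% of the exon length of *Abcb1a*, and the strand setting of the counting is not given in the sources used here.

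As counted, nearly all P-glycoprotein transcript in this line fell to *Abcb1b*. It was at 10.2, 10.2, 10.4, 9.87 and 9.79 FPKM in saline samples and at 10.7, 10.6, 11.0, 10.7 and 10.1 FPKM in StcE samples. In 4 of the 5 StcE samples it stood above the highest saline sample, and StcE replicate 6 lay inside the saline range. Its log2 fold change of 0.068 (SE 0.0272, 95% interval 0.0085 to 0.13) had an unadjusted p of 0.0285 and an adjusted p of 0.129 with limma, and an exact permutation p of 0.0317.

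*Abcb1a* was at 0.318, 0.245, 0.260, 0.215 and 0.180 FPKM in saline samples, behind which stood 53, 34, 38, 27 and 24 fragments. In StcE samples it was at 0.202, 0.172, 0.247, 0.151 and 0.362 FPKM, from 26, 26, 47, 29 and 50 fragments. Every sample was above the 0.0156 to 0.0239 FPKM that 3 fragments are worth. The groups overlapped, and StcE replicates 5 and 6 were the lowest and the highest of the 10. In all, 176 fragments (95% Poisson interval 151 to 204) fell to saline and 178 (153 to 206) to StcE samples, intervals that cover counting error only. The gene was below the minimum for testing. With no filter its log2 fold change was -0.021 (95% interval -0.13 to 0.086, limma adjusted p = 0.865), on a scale where the added 1 hides changes of a gene this low.

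Within single samples *Abcb1b* was 28.1-fold to 70.9-fold above *Abcb1a*. By the group means the ratio was 41.4 in saline and 46.9 in StcE samples. The mean log2 ratio of *Abcb1a* to *Abcb1b* differed by -0.22 between StcE and saline, less than the SD of 0.278 among saline and 0.520 among StcE samples (exact two-sided permutation p = 0.421). Without StcE replicate 6 the difference was -0.43 (exact p = 0.0714).

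*Abcg2* encodes the breast cancer resistance protein, which pumps many of the drugs that P-glycoprotein also handles (chr6:58584523-58695676, plus strand). It was at 5.96, 6.14, 6.24, 5.44 and 6.01 FPKM in saline samples and at 5.87, 6.15, 6.11, 6.28 and 5.94 FPKM in StcE samples. Apart from saline replicate 4, the lowest of all, the 2 groups covered nearly the same range. Limma gave a log2 fold change of 0.024 (SE 0.0354, 95% interval -0.054 to 0.10, limma adjusted p = 0.708), and without saline replicate 4 it was -0.0038.

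*Abcc4* encodes MRP4, a pump for organic anions, cyclic nucleotides and conjugates (chr14:118482692-118706219, minus strand). It was at 10.0, 9.03, 9.47, 10.1 and 9.20 FPKM in saline samples and at 9.24, 9.51, 9.58, 10.1 and 9.86 FPKM in StcE samples. The StcE values lay inside the saline range. The log2 fold change was 0.012 (SE 0.0358, 95% interval -0.066 to 0.090, limma adjusted p = 0.865), and its sign was negative without saline replicate 2, saline replicate 5 or StcE replicate 5. Of the 3 pumps tested, 0 passed.

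To see which transporters varied together between samples, the deviations of log2(FPKM + 1) from the group means were correlated for all 36 pairs of the 9 measured genes over the 10 samples. *Slc7a5* and *Slc7a1* had the highest correlation, with Pearson's r of 0.843 and Spearman's rho of 0.770. Both were low in StcE replicates 1 and 3 and high in saline replicates 1 and 4 for their groups. Their r was 0.833 within saline samples, 0.874 within StcE samples and 0.775 without the 2 samples farthest from the median of *Slc7a5*. Exact permutation within groups gave p = 0.00660 for r and 0.0134 for rho, and over the 36 pairs these were adjusted to 0.238 and 0.367, so the pair did not hold up against the number compared. *Slc16a1* and *Abcb1a* had the lowest correlation, with r of -0.71 and rho of -0.78, a rho larger in size than the 0.770 above. By the same permutation their adjusted p was 0.526 for r and 0.367 for rho. The values of a sample share its library and depth. *Slc7a5* and *Slc3a2*, the chains of one transporter, had an r of -0.011.

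**Figure D3:**
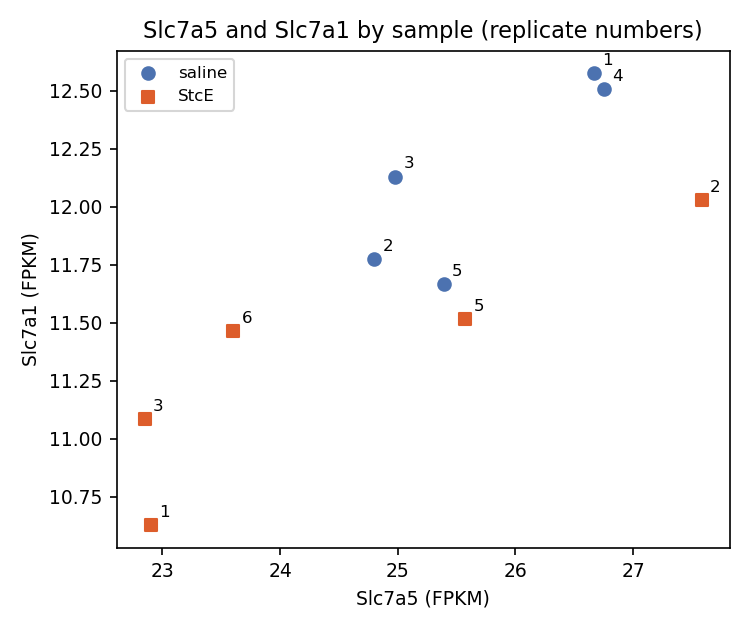
*Slc7a1* against *Slc7a5* (both in FPKM) in each saline sample (circles) and StcE sample (squares), with replicate numbers. Within both groups samples with more *Slc7a5* tended to have more *Slc7a1* (r of 0.833 and 0.874), a relation that did not pass after adjustment over 36 pairs, and 4 of the 5 StcE samples lie below every saline sample on the *Slc7a1* axis.

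*Slc16a1* had the largest test statistic of the 8, so the genes most like it over the 10 samples were looked up among all genes tested. The highest correlations of log2(FPKM + 1) were those of *Frrs1* (r = 0.937), *Asf1b* (r = 0.917) and *Slc31a1*, a copper carrier (r = 0.905). They are the top of 11062 genes ranked in this way and are given as a description.

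Beside these genes, 74 further carriers and pumps known from brain endothelium or of the same families were examined, of which 67 had a row and 36 were tested. Of the 36, 7 passed the threshold, 3 higher and 4 lower after StcE, beside the background share of 11.9%. Their median log2 fold change was -0.021. By group, 1 of 4 sugar and monocarboxylate carriers, 2 of 13 amino acid carriers, 1 of 4 organic ion carriers, 3 of 12 vitamin, nucleoside, choline and lipid carriers and 0 of 3 further ABC pumps passed. At an unadjusted p under 0.05 these ABC pumps held 1, and the 36 together 13, beside 27.8% of all genes tested.

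The 3 higher genes encode a lactate, an amino acid and a vitamin carrier. *Slc16a3*, which encodes the lactate exporter MCT4, was at 9.90 ± 0.293 FPKM in saline and 12.01 ± 0.252 FPKM in StcE samples (log2 fold change 0.26, SE 0.0263, limma adjusted p = 0.000127). *Slc1a5*, which encodes the glutamine exchanger ASCT2, was at 18.9 ± 0.738 FPKM in saline and 22.3 ± 0.737 FPKM in StcE samples (log2 fold change 0.23, SE 0.0315, limma adjusted p = 0.000993). *Slc19a2*, which encodes a thiamine carrier, was at 18.0 ± 0.453 FPKM in saline and 20.6 ± 0.957 FPKM in StcE samples (log2 fold change 0.19, SE 0.0325, limma adjusted p = 0.00359). In all 3 the groups did not overlap, and all 3 passed under each of the 21 alternatives. Groups without overlap were found in 6 of the 36 further transporters tested, beside 10.7% of all genes tested. The 95% interval of *Slc16a3*, 0.20 to 0.31, lay above that of *Slc16a1*, though the difference between the genes was not tested.

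The 4 lower genes changed less firmly over the alternatives, though in *Slc27a4*, *Slco3a1* and *Slc29a3* the groups did not overlap either. *Slc27a4*, a fatty acid carrier, had a log2 fold change of -0.13 (limma adjusted p = 0.0256). *Slco3a1*, of the organic anion carriers, changed by -0.17 (adjusted p = 0.0287). *Slc7a7*, which pairs with the *Slc3a2* product to export cationic amino acids, changed by -0.11 (adjusted p = 0.0286). *Slc29a3*, a nucleoside carrier, changed by -0.16 (adjusted p = 0.0429). These 4 fell short of the threshold in 8, 9, 9 and 12 of the 21 alternatives, and 10.1% of the *Slc7a7* transcript shares sequence with *Oxa1l*, its neighbour on the other strand. Near-identical stretches in 3 other genes cover 14.1% of the *Slc29a3* transcript.

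The most abundant gene of each group did not pass. *Bsg* encodes basigin, the chaperone that brings MCT1 and MCT4 to the membrane. It was at 257 ± 0.959 FPKM in saline and 260 ± 5.04 FPKM in StcE samples (n = 5 each, log2 fold change 0.018, limma adjusted p = 0.602). *Slc38a2*, a neutral amino acid carrier, was at 57.4 ± 0.909 and 58.0 ± 2.81 FPKM, and *Slc44a2*, a choline carrier, at 30.2 ± 1.55 and 28.3 ± 0.939 FPKM. *Slco4a1*, a thyroid hormone carrier, was at 15.2 ± 1.61 and 17.7 ± 5.36 FPKM, with StcE replicate 3 at 26.1. *Abcc1*, which encodes MRP1, was at 15.5 ± 0.623 and 14.9 ± 0.989 FPKM and so above every efflux pump of the first 10 genes. *Slco1a4*, *Slco1c1* and *Slc22a8*, carriers known from brain capillaries, had no row, nor did *Slc2a10*, *Slc16a7*, *Slc7a2* and *Slc7a10*, and they were not analysed here. Like *Slc38a5*, they may be undetected genes, which was not tested.

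**Figure D4:**
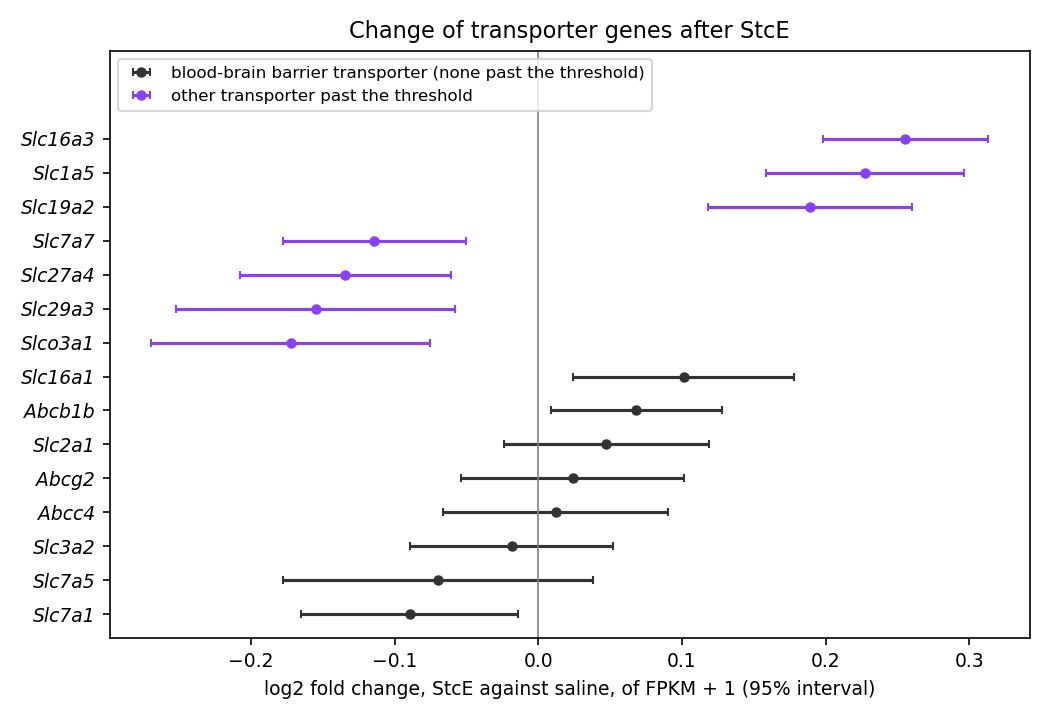
Log2 fold change of FPKM + 1, StcE against saline, with its 95% interval from limma, for the 8 tested blood-brain barrier transporters (black) and the 7 further transporters past the threshold (purple). The purple genes are shown because they passed, and the further transporters that did not pass are left out. The black points lie between -0.090 and 0.10, and the highest bound among them is 0.18. This is below the lower bound of 0.20 of *Slc16a3*, but above those of *Slc1a5* (0.16) and *Slc19a2* (0.12).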

How the data were processed

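RNA-seq of bEnd.3 cells (5 saline and 5 StcE samples) was analysed. The authors prepared poly-A libraries with dUTP strand marking, aligned trimmed read pairs to GRCm38 (mm10) and deposited FPKM values, 1 column per sample. The submitters' processing notes name HISAT2 2.0.5, featureCounts 1.5.0-p3 and DESeq2 1.32.0, and the annotation release is not given in the sources used here. The table held 27024 rows with a gene name and 22874 empty rows, and 12 names stood on more than 1 row.

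Groups were taken from the labels. For testing, 1 was added to each FPKM and log2 taken, and a linear model with an intensity trend (limma 3.58.1, R 4.3.3: lmFit and eBayes) was fitted to the 11062 genes whose FPKM averaged 1 or more, with Benjamini-Hochberg adjustment and a threshold of 0.05. A fold change on this scale understates the change of low genes. Values given per gene were also tested by exact two-sided permutation over 252 arrangements. The procedure was tested on simulated data. Fragments were recovered from the FPKM with exon lengths of GENCODE vM21: 26704 names matched, and 97.4% of values above 0 and below 1000 fragments were whole to within 0.02 to 0.1 fragment. Shared sequence was searched with BLAST 2.17.0, keeping windows of 150 aligned bases with 95% or more identity, and coding sequences were aligned with Biopython 1.88.

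The members, the further transporters, the marker lists and the tests were chosen with earlier results of these data known. By rule, the genes named were all 10 members, in each group of further transporters up to 4 genes past the threshold with the largest change and the most abundant gene, the 3 genes most correlated with the member of largest test statistic, and the markers. *Mfsd2a* and *Slc7a3* fall outside the rule and were named after their values were seen.

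The 21 alternatives were an added value of 0.1 in place of 1, all genes or those averaging 0.1 FPKM or more, rescaling of samples by median ratio or upper quartile, eBayes without trend or with trend and robust, the replicate number as a block, the same 8 samples without it, each of 10 samples left out, and, chosen after seeing the data, voom on recovered fragments and scaling by total fragments. Same-numbered samples did not deviate together (correlations -0.0966, -0.0225, -0.0265 and 0.0538), so the numbers were not taken to pair samples.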

Additional observations from a re-analysis of the deposited data

Results flagged for a closer look

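In 46 sets of 5 values (the transporters and ratios given above, in each group), 1 sample stood apart by Dixon's criterion, where chance alone would mark about 2.3. *Slc16a3* was at 12.4 FPKM in StcE replicate 2, against 11.8 to 11.97 FPKM in the other StcE samples, a gap that took 0.776 of the group's range. Its log2 fold change passed the threshold with that sample left out as well.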

How the results depend on the processing

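The count of 0 among the 8 tested transporters held in all 21 alternatives (9 genes with lower filters). Of 168 refits of single transporters, 164 kept their sign and side of the threshold. The sign turned for *Abcg2* without saline replicate 4 (-0.0038), for *Abcc4* without saline replicate 2 (-0.0066), saline replicate 5 (-0.00046) or StcE replicate 5 (-0.0023), and for *Slc38a2* without StcE replicate 3 (-0.0068), while the highest values with 1 sample left out were 0.039, 0.031 and 0.040. Over all genes, 801 passed with no filter (409 lower, 392 higher), where 27024 rows were tested. Leaving out 1 sample gave 793 (without StcE replicate 3, 384 higher and 409 lower) to 1255 genes, with 838 (428 lower) without saline replicate 1. The replicate block over 8 samples gave 349 genes (162 lower, 187 higher), and the same 8 samples without it had 452 lower. Of the further transporters, 3 passed with the replicate block and 3 in the same 8 samples without it. Leaving out 1 sample gave 3 to 7 (3 without saline replicate 1, StcE replicate 1 or StcE replicate 6, 4 without saline replicate 4 or StcE replicate 3), and voom gave 9. In paired exact tests over the shared replicate numbers, as a replicate block, the log2 ratio differed by -0.0065 for *Slc7a5* to *Slc3a2* (p = 1) and by -0.46 for *Abcb1a* to *Abcb1b* (p = 0.125, the smallest that 4 pairs can give). Leaving out 1 sample gave -0.089 to -0.014 and -0.43 to -0.092. The cause of these shifts was not tested. Depth limits *Abcb1a*, with 24 to 53 fragments per sample, while 1017 to 6494 lay behind the other 8.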

Other observations

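Some of the further carriers and pumps lay below the FPKM minimum and so outside the comparison above. The 2 given here were picked out after their values were seen. *Mfsd2a* encodes the carrier of lysophosphatidylcholine bearing docosahexaenoic acid and is known for limiting transcytosis at the barrier. It was at 0.599, 0.526, 0.517, 0.291 and 0.530 FPKM in saline samples and at 0.831, 0.836, 0.743, 0.850 and 0.916 FPKM in StcE samples. The groups did not overlap, with 15 to 67 fragments per sample, and with no filter the log2 fold change was 0.30 (limma adjusted p = 0.0277). In that fit 801 of all 27024 rows passed, and 7 of the 67 further transporters with a row. Groups without overlap made up 10.7% of the genes above the FPKM minimum, and their share below it was not counted. *Slc7a3* encodes CAT3, a cationic amino acid carrier related to the *Slc7a1* product. It was at 0.304, 0.365, 0.278, 0.357 and 0.500 FPKM in saline and at 0.573, 0.669, 0.594, 0.762 and 0.566 FPKM in StcE samples, again without overlap, from 28 to 101 fragments (log2 fold change 0.26, limma adjusted p = 0.0281 with no filter). The sign of its change was opposite to that of *Slc7a1*.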
